A study of Homo sapiens with 12 samples.

Results

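The genes described here make ribosomes: RNA polymerase I subunits and factors, small nucleolar ribonucleoprotein (snoRNP) proteins, and assembly factors of the 2 ribosomal subunits. They were chosen by symbol from the gene rows of 12 raw count tables, 43 of 23228 rows, and all 43 passed the filter on low counts that left 14571 genes for testing. By role, 5 encode Pol I core subunits, 3 Pol I initiation factors, 1 a Pol III subunit, 4 box C/D and 3 box H/ACA snoRNP proteins, 6 nucleolar proteins with several functions, 9 factors of the small subunit and 12 factors of the large subunit. POLR3G belongs to Pol III alone, and POLR1C and POLR1D are subunits of both Pol I and Pol III, so the set is wider than Pol I.

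The libraries hold poly(A) RNA of the line MDA-MB-468, a widely used model from a basal breast cancer without hormone receptors or HER2 amplification, labelled wild type in every group. There were 4 groups of 3 libraries, A, B and C. Cells received DMSO alone; ipatasertib, which inhibits the kinase AKT, at 5 µM from day 0; tazemetostat, which inhibits the histone methyltransferase EZH2, at 5 µM from day -5; or the combination of both on those schedules. From day 0 the medium of all groups held 2% serum, and RNA was taken 24 h later. All values come from 1 cell line.

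Ribosome production starts in the nucleolus, where RNA polymerase I transcribes one long precursor of most ribosomal RNAs. Box C/D snoRNPs guide methylation and box H/ACA snoRNPs guide pseudouridylation of that precursor, while large complexes fold it, cut it and add ribosomal proteins until the subunits leave for the cytoplasm. Growth signalling through AKT and mTOR and the transcription factor MYC are the best-known activators of these genes, and the pathway is commonly raised in tumour cells.

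Reads counted in genes numbered 12981622 to 28746965 per library, with the combination libraries shallowest. At 3 counts the level is 0.104 to 0.231 CPM (counts scaled to the size of their library), and the floor covers counting error only. Library A stood apart in every group: chi-square per degree of freedom was 4.36 to 15.5 between A and B or C, against 2.41 to 3.62 between B and C, so counts are also given without the 4 A libraries. Of all counted reads, those outside genes were 19.9% ± 1.43 in DMSO libraries, 23.3% ± 1.004 with ipatasertib, 21.1% ± 1.65 with tazemetostat and 25.2% ± 0.952 for cells given both (SD, n = 3; exact two-sided permutation p = 0.1, 0.5 and 0.1 against DMSO, where 0.1 is the smallest p that 3 against 3 can give). Epithelial and basal markers of the line were expressed in each library (EGFR, KRT5, KRT6B, KRT14, KRT17, KRT18, CDH1 and EPCAM, summed 4260 to 6001 CPM), while of the hormone receptor and HER2 genes PGR stayed under 1 CPM, ESR1 had group means of 1.45 to 1.82 and ERBB2 of 41.7 to 52.6 CPM. Single markers of the line moved with treatment. Mean KRT5 went from 1718 CPM with DMSO to 443 with the combination, and KRT14 from 219.5 to 84.5. EGFR rose from 1065 to 2257 with ipatasertib and 2243 with the combination. Markers of other cell types were low and also moved with treatment. For DMSO, ipatasertib, tazemetostat and the combination in turn, 4 endothelial markers (3 under 1 CPM in every group) summed to 0.545 to 1.03, 1.49 to 1.87, 1.16 to 1.57 and 3.87 to 5.10 CPM. The 4 leukocyte markers (3 under 1 CPM in every group) summed to 2.74 to 3.41, 2.79 to 3.26, 3.78 to 3.996 and 4.48 to 4.77 CPM, and the 5 fibroblast markers (3 under 1 CPM in every group) to 9.65 to 11.6, 5.12 to 5.49, 15.3 to 19.0 and 9.25 to 11.03 CPM. Their part in the results below was not tested. No label ties A, B and C to separate cultures, so every p-value below rests on the spread between libraries, which may be technical. In bulk RNA, a change in every cell and a change in part of the cells cannot be told apart. Levels are relative to the library, so a change in total RNA per cell would not be seen.

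Of the 43 genes, most were lower with tazemetostat and nearly all with the combination, while with ipatasertib fewer were called lower. Calls are edgeR quasi-likelihood tests with Benjamini-Hochberg adjustment over all tested genes at 0.05, and the 3 comparisons with DMSO share its 3 libraries. With ipatasertib 20 of the 43 fell and 3 rose, where 23.1% of all tested genes were called lower, 24.0% higher and 47.1% in either direction. With tazemetostat 37 fell and 0 rose (background 21.3% lower, 25.9% higher and 47.2% in either direction); 0 were also higher at an unadjusted p under 0.05 and by DESeq2. With the combination 40 fell and 2 rose (background 30.0% lower, 34.4% higher and 64.4% in either direction), which left NPM1 alone without a call. The median log2 fold change of the 43 was -0.20, -0.44 and -0.65 for ipatasertib, tazemetostat and the combination, beside 0.0039, 0.0090 and 0.030 over all tested genes. In single libraries, the median of the 43 relative to the DMSO mean was -0.02 to 0.02 in DMSO libraries, -0.25 to -0.15 after ipatasertib, -0.50 to -0.43 after tazemetostat and -0.66 to -0.59 after both drugs, so the 4 groups did not overlap. Libraries were fully separated from DMSO, in the lower direction, for 26, 37 and 40 of the 43, against 29.2%, 26.8% and 32.4% of all tested genes. Without the 4 A libraries, 21, 37 and 40 fell and 4, 1 and 2 rose, where 49.2%, 55.7% and 66.8% of all tested genes were called in either direction. When library totals replaced the scaling factors, 17 fell and 5 rose with ipatasertib, where 2879 of 14571 tested genes were called lower and 3953 higher.

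**Figure D1:**
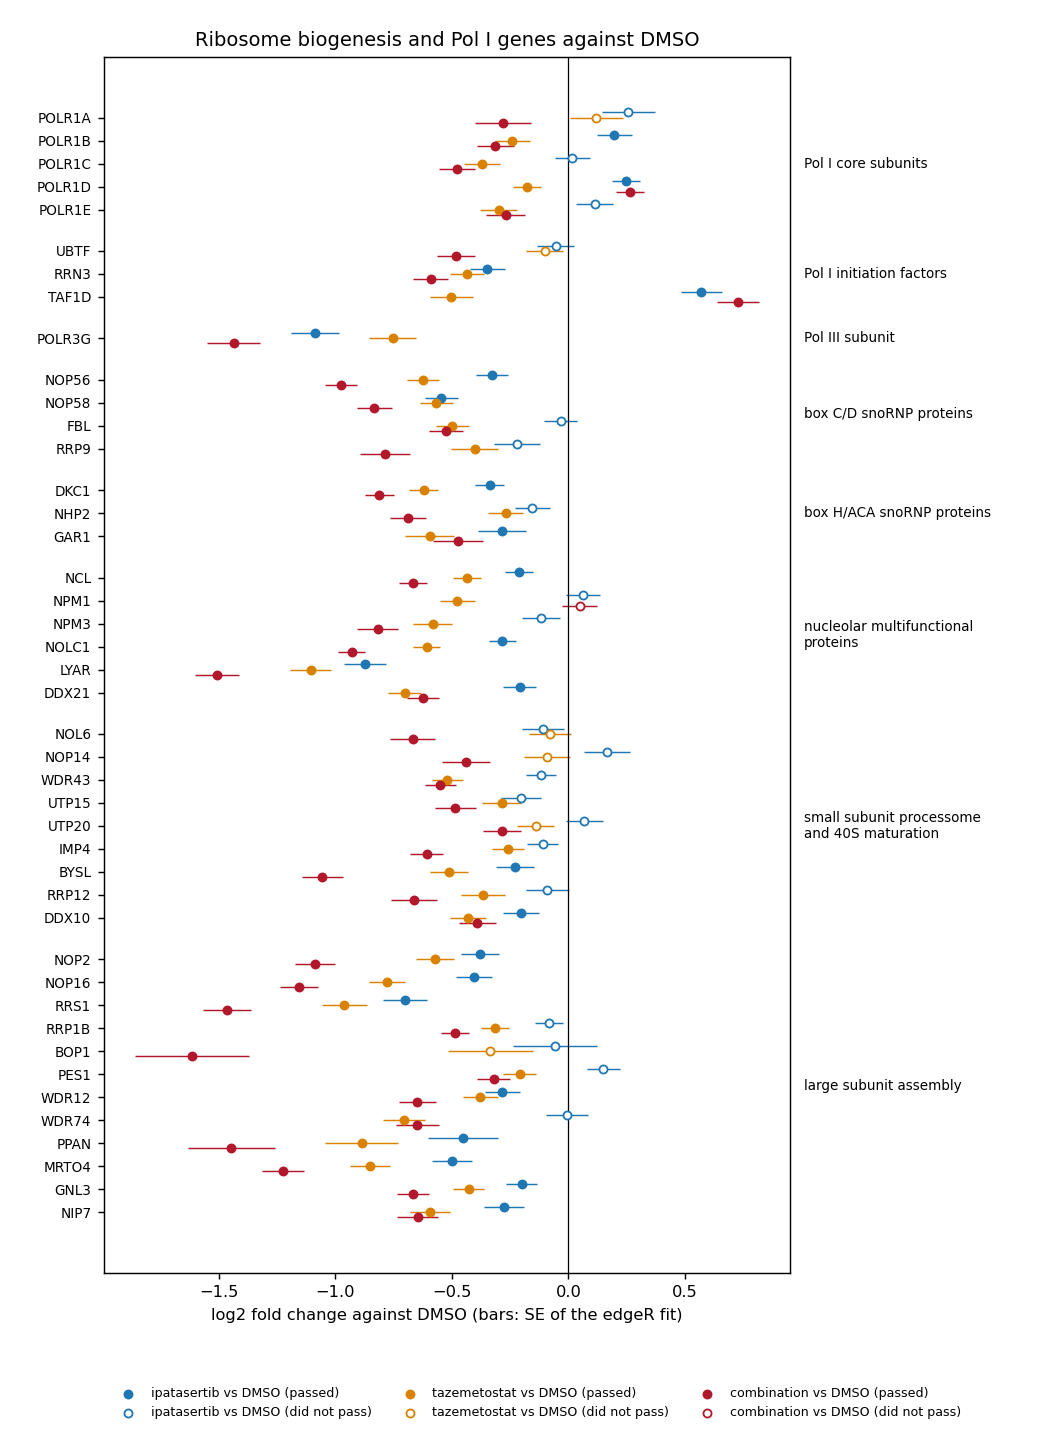
Log2 fold change against DMSO on the x axis (bars: standard error of the edgeR fit) for each of the 43 genes, grouped by role, with ipatasertib in blue, tazemetostat in orange and the combination in red; filled points passed the test and open points did not. Most points lie left of 0, with LYAR, RRS1, PPAN, POLR3G and BOP1 farthest left for the combination and TAF1D and POLR1D to the right for ipatasertib and the combination.

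The order of the group means repeated across the set. DMSO had the highest mean for 33 of 43 genes (29.5% of all tested genes), and the combination had the lowest for 35 (29.8% of all tested genes). The full order DMSO, ipatasertib, tazemetostat, combination, from high to low, was that of 27 genes, or 62.8%, beside 8.68% of all tested genes. These orders rest on means and carry no test. The drugs also began on different days, so drug and length of exposure cannot be told apart in them. The other 8 genes had their lowest mean with tazemetostat alone: TAF1D, NPM1, POLR1D, POLR1E, GAR1, DDX10, WDR74 and DDX21.

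What the genes share in sequence was read from RefSeq promoter windows (GRCh38.p14, 250 bases before to 50 bases after each start), which matched 35 of the 43. The motif searched was the E-box CACGTG, the site that MYC with MAX binds and also that of other factors such as USF; it is its own reverse complement, so both strands are covered. In the 250 bases before the start, 4 of 35 genes held it (11.4%), beside 11.1% of 9935 matched tested genes and 6.34% of all windows. In the 50 bases after the start, a window looked at after the first, 11 of 35 held it (31.4%), beside 1.46% of tested genes. The whole 300 bases held it in 15 of 35 (42.9%), beside 12.3%. Shown are up to 30 bases around the motif (in capitals) for the 8 genes with a match that were lowest with the combination. The shares differed most in the 50 bases after the start, but the sites of LYAR, RRP9 and DDX21 begin before it. From 100 to 50 bases before the start, where LYAR's site lies, the shares were alike (2.86% and 3.07%). Each sequence runs 5′ to 3′ along the gene's strand, and the coordinates are those of the printed bases.
LYAR, chr4:4290068-4290097, minus strand, motif starting 64 bases before the start: cggcggcgagtcCACGTGctccccgcggcc
MRTO4, chr1:19251807-19251836, plus strand, motif from base 15 of the transcript: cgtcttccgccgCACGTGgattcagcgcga
NOP2, chr12:6568242-6568268, minus strand, motif from base 36: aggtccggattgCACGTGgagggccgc
BYSL, chr6:41921515-41921544, plus strand, motif from base 29: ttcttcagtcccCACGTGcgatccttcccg
RRP9, chr3:51941892-51941921, minus strand, motif starting 5 bases before the start and crossing it: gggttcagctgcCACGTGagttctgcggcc
NOL6, chr9:33473894-33473923, minus strand, motif from base 14: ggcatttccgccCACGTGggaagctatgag
GNL3, chr3:52686026-52686055, plus strand, motif from base 7: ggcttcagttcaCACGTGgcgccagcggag
DDX21, chr10:68956604-68956633, plus strand, motif starting 31 bases before the start: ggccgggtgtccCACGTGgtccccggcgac
A match is a description of these letters, not a bound site. The 15 genes with the motif and the 20 without it had nearly equal medians: -0.20 and -0.18 with ipatasertib, -0.50 and -0.44 with tazemetostat, and -0.62 and -0.62 with the combination (log2 fold change against DMSO). With the combination, 15 of the 15 and 17 of the 20 fell, beside 30.0% of all tested genes. TAF1D and POLR1D, the 2 genes that rose with the combination, and NPM1 were among the 20.

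**Figure D2:**
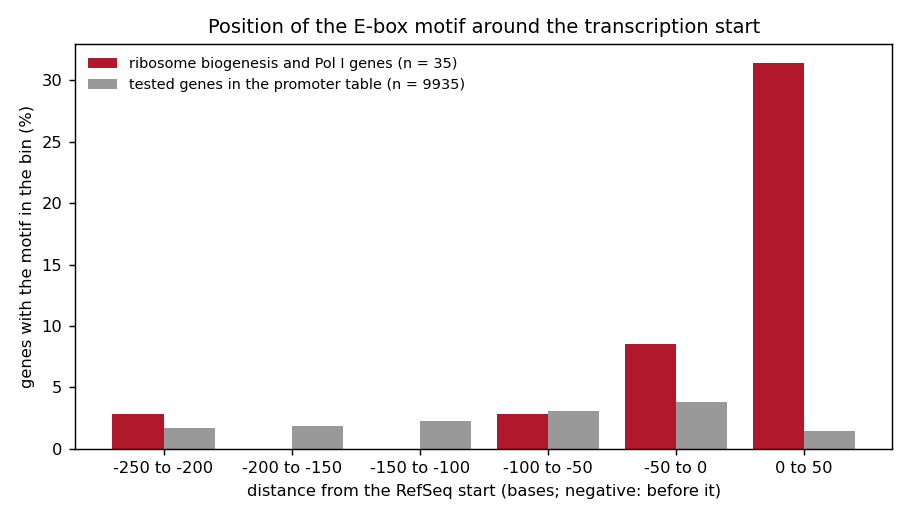
Share of genes (y axis, percent) with the first base of CACGTG in each 50-base bin along the promoter window (x axis, distance from the RefSeq start in bases), for 35 ribosome biogenesis and Pol I genes in red and 9935 tested genes in grey. The red bar reaches 31.4% in the bin after the start, where the grey bar is at 1.46%, and the highest bar elsewhere is at 8.57%.

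The Pol I core subunits fell by little and not in every treatment. With ipatasertib POLR1B and POLR1D rose and 3 did not pass, with tazemetostat 4 of 5 fell, and with the combination 4 fell and POLR1D rose. Their medians were 0.20, -0.24 and -0.28. Over all tested genes 23.1%, 21.3% and 30.0% were called lower and 24.0%, 25.9% and 34.4% higher, in the same order. POLR1A, the catalytic subunit, read 41.5, 39.0 and 35.4 CPM with DMSO, 54.7, 42.1 and 41.5 with ipatasertib, 35.2, 48.6 and 41.8 under tazemetostat, and 33.2, 27.6 and 34.3 in the combination. Only the combination passed against DMSO (-0.28 ± 0.119, edgeR adjusted p = 0.0432), and 6 of 21 alternative settings did not keep that call. All 3 combination libraries lay below DMSO, while its ipatasertib and DMSO libraries met at 41.5 CPM (log2 fold change 0.26 ± 0.114, not called). POLR1B, the second-largest subunit, read 58.9, 58.1 and 60.3 CPM with DMSO, 70.8, 66.5 and 65.8 with ipatasertib, 53.6, 50.006 and 46.7 under tazemetostat, and 43.5, 46.3 and 53.1 in the combination. It was higher with ipatasertib (0.20 ± 0.0760, edgeR adjusted p = 0.0381), a call that 12 of 21 alternatives lost, and lower with tazemetostat (-0.24) and the combination (-0.31). POLR1D, shared with Pol III, read 129, 123 and 122 CPM with DMSO, 142, 152 and 149.7 with ipatasertib, 114, 107.03 and 109.7 under tazemetostat, and 154, 151 and 144 in the combination. All 6 libraries that received ipatasertib were above, and the 3 with tazemetostat alone below, every DMSO library. Its log2 fold changes were 0.25 ± 0.0615 with ipatasertib, -0.18 ± 0.0618 after tazemetostat and 0.26 ± 0.0620 for both drugs (edgeR adjusted p = 0.00224, 0.0219 and 0.000794). POLR1C, the other shared subunit, and POLR1E, a Pol I-specific one, fell with tazemetostat (-0.37 and -0.30) and the combination (-0.48 and -0.27). With ipatasertib they measured 0.02 and 0.11 and did not pass.

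The 3 initiation factors differed from one another. TAF1D, a TBP-associated subunit of the promoter factor SL1, read 55.4, 61.2 and 60.2 CPM with DMSO, 80.6, 94.3 and 87.7 with ipatasertib, 46.2, 39.0 and 39.8 under tazemetostat, and 90.6, 112 and 90.2 in the combination. The 2 groups with ipatasertib were above DMSO in every library and tazemetostat alone was below it. TAF1D rose with ipatasertib (0.57 ± 0.0886, edgeR adjusted p = 1.85e-05) and the combination (0.73 ± 0.0894, edgeR adjusted p = 3.11e-07) and fell with tazemetostat (-0.50 ± 0.0909, edgeR adjusted p = 0.000104). RRN3, which brings Pol I to the promoter, fell in all comparisons with DMSO (-0.35, -0.44 and -0.59). Its pseudogenes RRN3P1, RRN3P2 and RRN3P3 are in the tables at 0.0943 to 2.76 CPM, so some of its reads may be lost or shared. UBTF, the architectural factor of ribosomal DNA, fell with the combination alone (-0.48 ± 0.0818, edgeR adjusted p = 2.35e-05). UBTF with tazemetostat read 119 CPM in A and 151 and 142 in B and C, so those libraries overlapped DMSO.

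POLR3G, the Pol III subunit that replaces POLR3GL in growing and stem-like cells, read 16.5, 17.8 and 18.6 CPM with DMSO, 8.93, 8.70 and 7.33 with ipatasertib, 11.8, 9.49 and 10.2 under tazemetostat, and 6.65, 6.45 and 6.41 in the combination. It was the gene of the 43 with the largest fall with ipatasertib, to 47.1% of the DMSO level (log2 fold change -1.09 ± 0.104, edgeR adjusted p = 2.78e-08). Tazemetostat took it to 59.3% and the combination to 37.0% (-0.75 ± 0.101 and -1.44 ± 0.114). It was also the 1 member higher with tazemetostat than with ipatasertib (0.33 ± 0.1095, edgeR adjusted p = 0.0155), and the 3 tazemetostat libraries lay above the 3 ipatasertib libraries. POLR3GL, its paralog and not a member, went from 31.9 ± 1.33 CPM with DMSO to 35.7 ± 3.29, 34.9 ± 0.814 and 45.6 ± 2.00 with ipatasertib, tazemetostat and the combination. Only the last passed (log2 fold change 0.52 ± 0.0789, edgeR adjusted p = 6.01e-06), so the paralogs moved in opposite directions with the combination.

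**Figure D3:**
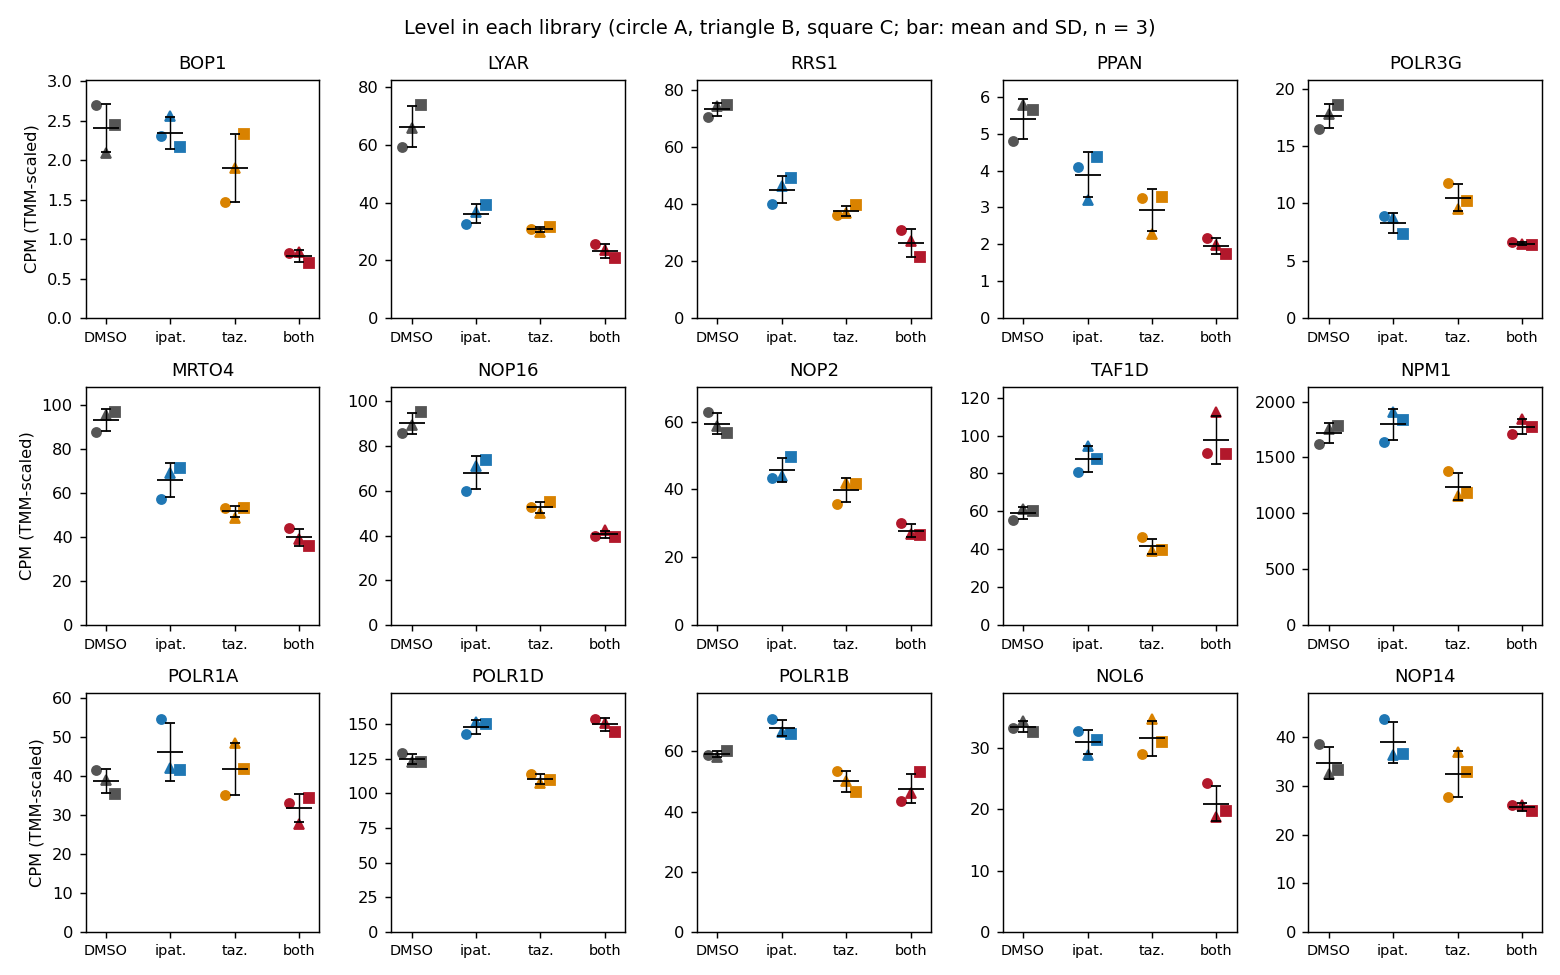
Level in CPM (y axis, from 0) in each library of the 4 groups (x axis; ipat. is ipatasertib, taz. tazemetostat and both the combination) for 15 genes named in the text; circles, triangles and squares are libraries A, B and C, and bars give the mean and SD (n = 3). The first 8 panels have their lowest mean with the combination, TAF1D and POLR1D are raised in the groups with ipatasertib, and NPM1 is low only with tazemetostat alone.

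Among snoRNP proteins, the 7 members all fell with tazemetostat and with the combination (21.3% and 30.0% of all tested genes were called lower). In the box C/D group, NOP56 and NOP58, which form the core of the particle, fell with ipatasertib (-0.33 and -0.54), tazemetostat (-0.62 and -0.57) and the combination (-0.97 and -0.83). FBL, the methyltransferase, measured -0.03 with ipatasertib and did not pass, and fell with tazemetostat (-0.50) and the combination (-0.52). The difference between those was -0.03 ± 0.0722 and did not pass (edgeR adjusted p = 0.792). RRP9, specific to the U3 particle that cuts the precursor, fell with tazemetostat (-0.40) and the combination (-0.79). In the box H/ACA group, DKC1, the pseudouridine synthase, went from 366 ± 18.3 CPM to 289.6 ± 15.6, 238 ± 7.26 and 209 ± 3.83 (SD, n = 3; all 3 called lower, -0.34, -0.62 and -0.81). NHP2 and GAR1, its partners, fell with the combination by 0.69 and 0.47 on the log2 scale. GAR1 alone of the 7 had a lower mean with tazemetostat than with the combination (32.3 against 35.0 CPM, difference 0.12 ± 0.109, not called). Exons of NHP2 share 27.4% of their bases with a gene on the other strand, and whether reads were counted by strand is not stated, so its level is uncertain.

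Of the 6 nucleolar proteins with several functions, 4 fell after ipatasertib, 6 after tazemetostat and 5 after both drugs. The shares called lower over all tested genes were 23.1%, 21.3% and 30.0%. LYAR, a nucleolar regulator of growth and rRNA processing, read 59.4, 65.9 and 73.6 CPM with DMSO, 32.7, 36.8 and 39.1 with ipatasertib, 30.8, 30.0 and 31.6 under tazemetostat, and 25.5, 23.5 and 20.8 in the combination. Its 4 groups stood fully apart, nearest to each other at 32.7 CPM with ipatasertib and 31.6 with tazemetostat. LYAR fell to 54.6%, 46.5% and 35.2% of DMSO with ipatasertib, tazemetostat and the combination (log2 fold change -0.87 ± 0.0890, -1.11 ± 0.0898 and -1.51 ± 0.0951; edgeR adjusted p = 7.22e-08, 1.39e-09 and 7.48e-12). NPM1, nucleophosmin, a chaperone of the granular nucleolus, read 1618, 1753 and 1785 CPM with DMSO, 1640, 1906 and 1838 with ipatasertib, 1375, 1152 and 1181 under tazemetostat, and 1711, 1844 and 1773 in the combination. Every tazemetostat library was below every other library, and those of DMSO, ipatasertib and the combination overlapped. NPM1 fell with tazemetostat (-0.48 ± 0.0736, edgeR adjusted p = 1.68e-05) and was higher in the combination than with tazemetostat (0.52 ± 0.0737, edgeR adjusted p = 5.28e-06), while ipatasertib and the combination measured 0.06 and 0.05 against DMSO. NPM3, its relative, did not follow it: NPM3 fell with the combination (-0.82 ± 0.0876) and was lower there than with tazemetostat (-0.23). NCL, nucleolin, which binds the precursor, fell in all comparisons with DMSO (-0.21, -0.44 and -0.67), and NOLC1, a snoRNP chaperone, did too (-0.28, -0.61 and -0.93). DDX21, an RNA helicase that acts on Pol I transcription and rRNA processing, fell by 0.21, 0.70 and 0.62 on the log2 scale.

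The 9 factors of the small subunit included 2 that fell with ipatasertib, BYSL and DDX10, 6 that fell with tazemetostat and 9 that fell with the combination. Their medians were -0.11, -0.29 and -0.55. Over all tested genes 23.1%, 21.3% and 30.0% were called lower, so the ipatasertib count was near that share. BYSL, which acts late in 40S maturation, went from 43.3 ± 1.19 CPM to 36.9 ± 1.92, 30.4 ± 1.01 and 20.7 ± 2.80 (SD, n = 3), 48.1% of DMSO with the combination (log2 fold change -1.05 ± 0.0879, edgeR adjusted p = 7.63e-10). The ipatasertib calls of BYSL and DDX10 were each lost in 5 of 21 alternatives. NOL6, NOP14 and UTP20, parts or partners of the processome that forms on the nascent precursor, passed with the combination alone (-0.67, -0.44 and -0.29). With tazemetostat they measured -0.08, -0.09 and -0.14. WDR43, a processome subunit, and DDX10, a helicase, fell with tazemetostat (-0.52 and -0.43) and with the combination (-0.55 and -0.39). The differences were -0.03 ± 0.0679 and 0.04 ± 0.0796 and did not pass. IMP4 and RRP12 fell with tazemetostat (-0.26 and -0.37) and further with the combination (-0.61 and -0.66; against tazemetostat -0.35 and -0.30, both called). UTP15 fell with tazemetostat (-0.29) and the combination (-0.48).

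With the combination, 6 of the 8 largest falls were in the large-subunit group, where 8 of 12 fell after ipatasertib, 11 after tazemetostat and 12 after both drugs (medians -0.28, -0.58 and -0.88). Called lower over all tested genes were 23.1%, 21.3% and 30.0%. RRS1, which brings the 5S particle into the early 60S subunit, read 70.7, 74.3 and 74.7 CPM with DMSO, 39.9, 46.2 and 49.0 with ipatasertib, 36.2, 37.0 and 39.5 under tazemetostat, and 30.9, 27.0 and 21.3 in the combination. All 4 groups stood apart, with DMSO highest and the combination lowest, but ipatasertib and tazemetostat nearly met at 39.9 and 39.5 CPM. The call between those 2 groups was lost with library totals as scaling and with a replicate block. RRS1 fell to 61.5%, 51.4% and 36.2% of DMSO (log2 fold change -0.70 ± 0.0951, -0.96 ± 0.0960 and -1.46 ± 0.102; edgeR adjusted p = 3.55e-06, 3.63e-08 and 3.90e-11). MRTO4, a ribosomal stalk protein homolog of the pre-60S particle, read 87.5, 95.1 and 96.6 CPM with DMSO, 57.2, 68.9 and 71.4 with ipatasertib, 53.0, 48.8 and 53.2 under tazemetostat, and 44.0, 39.1 and 36.0 in the combination. All 4 groups stood apart, and the level with the combination was 42.8% of DMSO (-1.23 ± 0.0890, edgeR adjusted p = 8.13e-11). NOP16 read 85.9, 89.4 and 95.2 CPM with DMSO, 59.9, 71.0 and 73.7 with ipatasertib, 52.6, 50.3 and 55.0 under tazemetostat, and 39.7, 42.5 and 39.4 in the combination. Its groups stood apart too, ending at 44.9% of DMSO (-1.16 ± 0.0812, edgeR adjusted p = 4.58e-11); 19.95% of its exonic bases lie in genes of the opposite strand. NOP2, an rRNA cytosine methyltransferase, read 62.8, 58.8 and 56.5 CPM with DMSO, 43.2, 43.9 and 49.7 with ipatasertib, 35.8, 42.0 and 41.7 under tazemetostat, and 30.2, 26.7 and 26.7 in the combination. It fell to 47.0% of DMSO with the combination (-1.09 ± 0.0864, edgeR adjusted p = 3.51e-10), with no overlap between any pair of groups.

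PES1, BOP1 and WDR12 form a complex needed to process the precursor of the large subunit, and the 3 had unlike fold changes, whose differences were not tested. BOP1 read 2.70, 2.09 and 2.44 CPM with DMSO, 2.31, 2.56 and 2.17 with ipatasertib, 1.47, 1.90 and 2.33 under tazemetostat, and 0.831, 0.834 and 0.697 in the combination. The combination libraries lay far below the other 9, whose groups overlapped. BOP1 fell with the combination to 32.7% of DMSO (-1.61 ± 0.245, edgeR adjusted p = 5.55e-06), while ipatasertib (-0.06 ± 0.179) and tazemetostat (-0.33 ± 0.184) did not pass. Only 10 to 76 reads per library lie behind these levels, the fewest of the 43. With DMSO the mean of BOP1 was 2.41 CPM, beside 137 for PES1 and 71.1 for WDR12. Why BOP1 read so low was not tested, so its level and fold changes are uncertain. WDR12 fell by 0.28, 0.38 and 0.65 on the log2 scale with ipatasertib, tazemetostat and the combination. PES1 measured 0.15 with ipatasertib, not called, and fell by 0.21 and 0.32 with the other treatments. PPAN, another large-subunit factor, read 4.79, 5.77 and 5.63 CPM with DMSO, 4.09, 3.20 and 4.38 with ipatasertib, 3.25, 2.28 and 3.29 under tazemetostat, and 2.16, 1.97 and 1.74 in the combination. DMSO stood above every treated library, and the combination below the rest. PPAN fell to 54.1% with tazemetostat and 36.7% with the combination (-0.89 ± 0.158 and -1.45 ± 0.186, edgeR adjusted p = 8.72e-05 and 6.08e-07), on 25 to 152 reads per library. Of its exonic bases, 59.8% also belong to P2RY11 or the read-through gene PPAN-P2RY11, which is at 0 in all groups, so the PPAN level is uncertain. WDR74, a 60S factor tied to the exosome, stood at -0.01 with ipatasertib and fell with tazemetostat (-0.71) and the combination (-0.65). GNL3, nucleostemin, fell by 0.20, 0.43 and 0.67 on the log2 scale, and NIP7, of whose exonic bases 20.2% lie in an opposite-strand gene, by 0.27, 0.59 and 0.65. RRP1B fell with tazemetostat (-0.31) and the combination (-0.49).

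Direct comparisons of the treated groups put most genes lower in the combination than with either drug alone. Against ipatasertib, 38 of the 43 were lower in the combination and 0 higher (background 20.7% lower and 24.2% higher), with 0 higher at an unadjusted p under 0.05 and by DESeq2, and the median difference was -0.49. Against tazemetostat, 26 were lower and 3 higher (background 23.1% lower and 23.2% higher), with a median of -0.24. The 3 higher were TAF1D (1.23 ± 0.0916), NPM1 (0.52) and POLR1D (0.44 ± 0.0623). Tazemetostat compared with ipatasertib had 30 lower and POLR3G higher (background 22.4% lower and 26.0% higher; median -0.28). These comparisons share libraries with one another and with those against DMSO. The medians over all tested genes were 0.0022, 0.0023 and 0.00061.

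The design also allows a test of whether the combination departed from the sum of the single-drug effects on the log2 scale. The median departure of the set was -0.022, beside -0.016 over all tested genes, with 23 genes below 0 and 20 above. Opposite departures cancel in such a median: the small-subunit group had -0.21 and the 3 initiation factors 0.19. For 36 of 43 genes the test did not pass, which does not show that their departures were small. The test called 3 higher than the sum and 4 lower, where 5.96% of all tested genes were called higher and 6.01% lower. TAF1D (0.66 ± 0.127, edgeR adjusted p = 0.00308), NPM1 (0.46 ± 0.104, edgeR adjusted p = 0.00887) and LYAR (0.47 ± 0.132, edgeR adjusted p = 0.0248) were above the sum. LYAR was still lowest in the combination, but by less than the single falls add up to. POLR1A (-0.66 ± 0.165, edgeR adjusted p = 0.0150), BOP1 (-1.22 ± 0.317, edgeR adjusted p = 0.0175), NOL6 (-0.48 ± 0.132, edgeR adjusted p = 0.0237) and NOP14 (-0.51 ± 0.144, edgeR adjusted p = 0.0259) were below it, and in these 4 neither single drug passed against DMSO. The count depends on single libraries. It was 23 without the 4 A libraries, where 37.3% of all genes were called and the 7 genes were all still called. It was 15 without tazemetostat A or without combination A, where 24.9% and 21.96% of all genes were called. It was 3 without DMSO C, ipatasertib A, tazemetostat B or combination B, where 4.57% to 6.64% were called, and each of these left TAF1D, NPM1 and BOP1. With all 12 libraries the share over all genes was 11.97%, so the members' count moved with it. With library totals as scaling it was 3 higher and 7 lower.

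**Figure D4:**
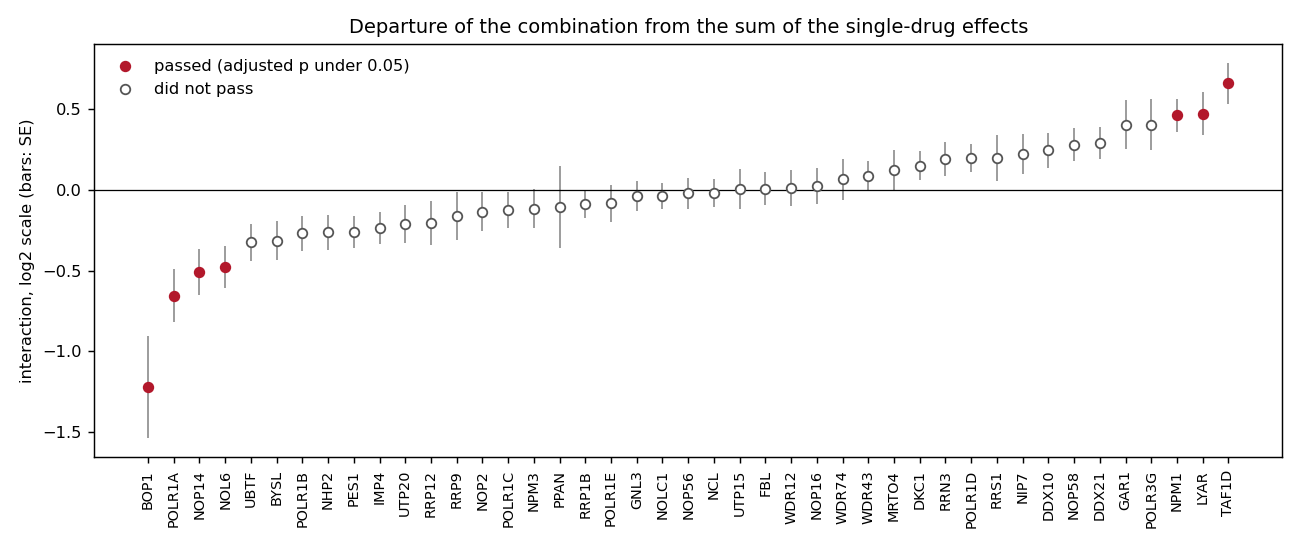
Departure of the combination from the sum of the single-drug effects (y axis, log2 scale, bars: standard error) for each of the 43 genes (x axis), in order of size; filled red points passed at adjusted p under 0.05. Points lie on both sides of 0, with 4 called genes at the low end from BOP1 (-1.22) and 3 at the high end up to TAF1D (0.66).

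The other genes of the pathway, 142 in 5 lists and all tested, moved the same way by less in their pooled medians, but not in every list. Of them 58 fell and 15 rose with ipatasertib, 90 fell and 2 rose with tazemetostat, and 101 fell and 7 rose with the combination (medians -0.13, -0.28 and -0.37). The medians of the other small-subunit genes were -0.18, -0.31 and -0.40, beside -0.11, -0.29 and -0.55 for those described above. With ipatasertib the other Pol I genes had -0.28, beside 0.20 for the core subunits and -0.05 for the initiation factors. With the other treatments their medians lay between those groups. The large-subunit and snoRNP lists fell by less with every treatment. These differences were not tested. Of 12 other Pol I subunits and factors, 7, 9 and 8 fell, among them CD3EAP, a Pol I subunit, from 15.8 CPM with DMSO to 7.13 with the combination (log2 fold change -1.13 ± 0.133, edgeR adjusted p = 1.74e-07). The list also holds subunits shared with Pol II, so its counts are not of Pol I alone. POLR2L, POLR2K and POLR2F among them fell with ipatasertib (-0.49, -0.40 and -0.35). The 21 other Pol III genes were mixed with ipatasertib, where 5 fell and 5 rose, and 12 fell and 2 rose with the combination. POLR3K, a small Pol III subunit, fell from 36.1 to 22.7, 22.8 and 14.7 CPM (combination -1.30 ± 0.0887, edgeR adjusted p = 2.60e-11), and GTF3C3, a subunit of the factor TFIIIC, rose with ipatasertib (0.67 ± 0.0774, edgeR adjusted p = 4.07e-07). Of 11 other snoRNP and assembly genes, 7 fell with the combination, including TCOF1, the nucleolar protein treacle, from 162.5 to 72.4 CPM (-1.17 ± 0.0888, edgeR adjusted p = 1.73e-10). Of 48 other small-subunit genes 38 fell and 3 rose with the combination, and WBSCR22, an rRNA methyltransferase, went from 116.5 to 58.2 CPM (-0.997 ± 0.0723, edgeR adjusted p = 7.41e-11). NOB1, the endonuclease that finishes 18S rRNA, rose with ipatasertib from 44.1 to 79.6 CPM (0.85 ± 0.0706, edgeR adjusted p = 2.78e-09). Of 50 other large-subunit genes 36 fell and 2 rose with the combination, with GNL3L, a relative of GNL3, going from 93.5 to 50.7 CPM (-0.88 ± 0.0797, edgeR adjusted p = 2.89e-09).

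**Figure D5:**
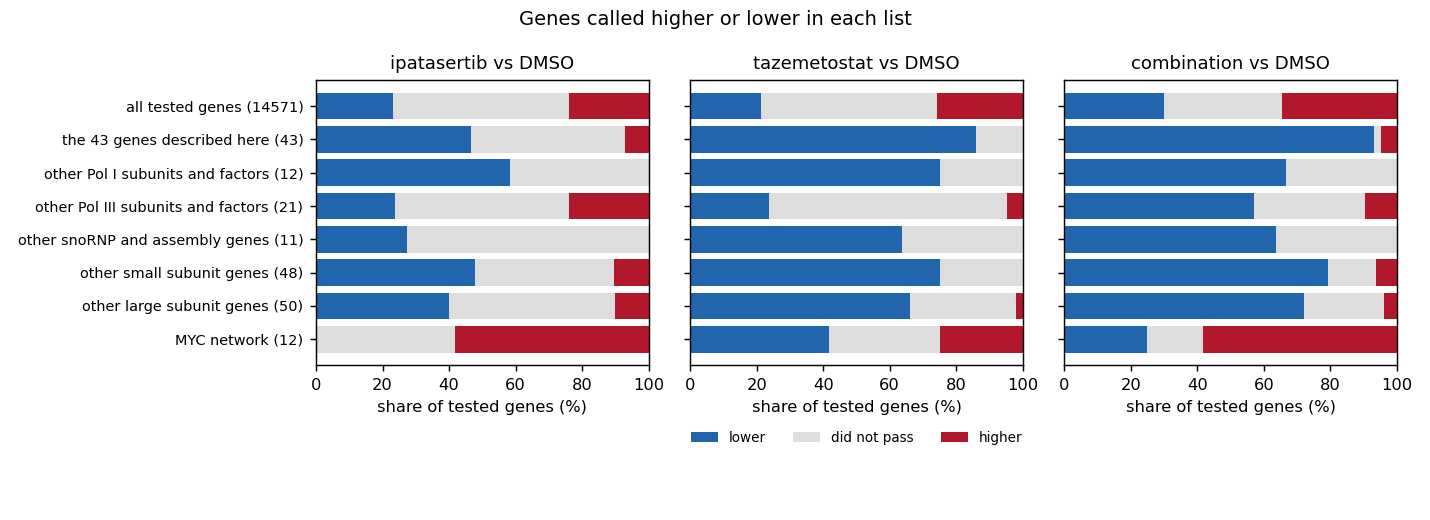
Share of tested genes (x axis, percent) called lower (blue), not called (grey) or higher (red) against DMSO for all tested genes, the 43 genes, 5 lists of other pathway genes and 12 genes of the MYC network (rows, with the number tested). The 43 genes have 37 and 40 of 43 in blue with tazemetostat and the combination, beside 21.3% and 30.0% of all tested genes. The MYC network has 7 of 12 in red with ipatasertib and with the combination, beside 24.0% and 34.4%.

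MYC, which activates many of these genes, did not have the order of levels most of them had. Its mean level was 69.3 ± 2.77 CPM in DMSO libraries (SD, n = 3), rising to 101 ± 2.97 after ipatasertib; it was 39.7 ± 2.25 after tazemetostat and 30.1 ± 1.78 after both drugs. MYC thus rose with ipatasertib (0.55 ± 0.0682, edgeR adjusted p = 1.02e-06), where 20 of the 43 fell, and fell with tazemetostat (-0.80 ± 0.0705, edgeR adjusted p = 4.30e-09) and the combination (-1.20 ± 0.0741, edgeR adjusted p = 4.49e-12), where 37 and 40 fell. Its departure from the sum of the drugs was -0.94 ± 0.102 (edgeR adjusted p = 1.41e-05), beside a median of -0.02 for the 43. Its relative MYCN read 19.6 ± 0.904, 47.9 ± 1.39, 16.8 ± 1.15 and 52.1 ± 0.553 CPM for DMSO, ipatasertib, tazemetostat and the combination in turn, so it was higher in both groups with ipatasertib (1.29 ± 0.0751 and 1.41 ± 0.0763, edgeR adjusted p = 1.07e-11 and 4.40e-13). Of the 12 genes of the MYC network, 7 rose with ipatasertib, 3 rose and 5 fell with tazemetostat, and 7 rose and 3 fell with the combination. Of all tested genes, 24.0%, 25.9% and 34.4% were called higher and 23.1%, 21.3% and 30.0% lower, in the same order. Besides MYC and MYCN, MXI1 and MNT rose with ipatasertib (log2 fold change 0.78 and 0.64), so the count does not measure MYC activity. Whether MYC or MYCN has a part in the levels of the 43 was not tested.

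Some of the 43 genes carry snoRNA genes within their own, from which guide RNAs of the snoRNPs are made. By the GENCODE 29 annotation, 8 of the 43 (18.6%) have a snoRNA gene inside on the same strand, beside 1.52% of 12393 matched tested coding genes. They are TAF1D with 8 such genes, GNL3 with 6, NOP56 with 5, NOP58 with 4, NCL and WDR43 with 3 each, and DKC1 and PPAN with 2 each. Of these 8 hosts, 6 fell and TAF1D rose with ipatasertib, 8 fell with tazemetostat, and 7 fell and TAF1D rose with the combination (medians -0.27, -0.54 and -0.74). Of the 35 without snoRNA genes, 14 fell and 2 rose with ipatasertib, 29 fell with tazemetostat, and 33 fell and 1 rose with the combination. Their medians were -0.12, -0.40 and -0.62. Of all tested genes, 23.1%, 21.3% and 30.0% were called lower with these treatments. The snoRNAs themselves were not analysed here. In TAF1D 14.3% and in NOP56 8.74% of exonic bases overlap other genes, snoRNA genes among them, so their levels are uncertain. These are shares of bases, and the share of reads affected is not known.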

How the data were processed

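Poly(A) RNA was sequenced in 12 libraries, with RNA purified by RNeasy Plus and libraries built by Kapa Hyper Prep, per the labels. What the authors deposited are raw counts per gene symbol. The submitters' processing notes name STAR, SAMtools, HTSeq, DESeq2 and hg19, with no versions; neither the annotation nor the strand setting of the counting is given in the sources used here. Closing lines that name no gene took 32.0% to 39.5% of the counted total and were left out of library sizes. A series-wide table of normalized values was not used.

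Counts were fitted with edgeR 4.0.16 in R 4.3.3: filterByExpr (minimum count 10), library sizes over the genes kept, TMM factors, 1 mean per group over 12 libraries (8 residual degrees of freedom), F-tests of the robust quasi-likelihood fit, and p-values adjusted by Benjamini-Hochberg over 14571 genes at 0.05 in each of 7 comparisons. CPM uses TMM-scaled library sizes. Standard errors were derived from the log2 fold change and the F statistic. Log2 fold changes are edgeR's, with its default prior count. The procedure was tested on simulated counts.

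The genes, lists and tests were chosen with earlier results of these data known. A fit with library sizes over all genes was run first. The present one was chosen after its values were seen, to match the earlier processing of these data, and the first is kept as an alternative. Genes shown in every library are the 8 with the largest change with the combination, the 3 largest with each single drug, the 4 with the smallest adjusted p in the departure from additivity, and called genes of opposite direction; NOL6 and NOP14 were added to the plot because the departure was called in them. The replicate letter does not pair libraries by the labels, so the fit has no block. Other settings were DESeq2 1.42.0, RLE factors or library totals as scaling, a minimum of 50 counts in 3 libraries or no minimum, the groups compared alone, a replicate block, each library left out, the A libraries left out and a threshold of 0.01. Promoter windows and motif positions use RefSeq GRCh38.p14, and gene overlaps use GENCODE 29, another build than that of the counts.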

Additional observations from a re-analysis of the deposited data

Results flagged for a closer look

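For 7 of the 43 genes the effect of ipatasertib differed with and without tazemetostat, by the edgeR test of the departure from the sum of the single-drug log2 effects. TAF1D (0.66 ± 0.127 SE, adjusted p = 0.00308), NPM1 (0.46 ± 0.104, adjusted p = 0.00887) and LYAR (0.47 ± 0.132, adjusted p = 0.0248) were higher in the combination than that sum. POLR1A (-0.66 ± 0.165, adjusted p = 0.0150), BOP1 (-1.22 ± 0.317, adjusted p = 0.0175), NOL6 (-0.48 ± 0.132, adjusted p = 0.0237) and NOP14 (-0.51 ± 0.144, adjusted p = 0.0259) were lower, all by edgeR. Over all tested genes 5.96% were called higher and 6.01% lower, or 11.97% in either direction. Whether 7 of 43 is above that share was not tested. Over 20 alternative settings the highest adjusted p was 0.0603 for BOP1, 0.0626 for POLR1A, 0.0944 for NOL6, 0.0956 for LYAR and 0.0968 for NOP14, and TAF1D and NPM1 passed in all 20.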

How the results depend on the processing

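For the 6 comparisons between groups, the number of the 43 genes called stayed within 1.5 times the main count under every alternative except 1: at a threshold of 0.01, ipatasertib against DMSO had 15 in place of 23. Leaving out 1 library at a time gave 17 to 27 genes for ipatasertib, 34 to 37 for tazemetostat and 41 to 42 for the combination against DMSO. The departure from additivity, with 7 genes, was the least stable: 2 at a threshold of 0.01, 23 without the A libraries and 3 to 15 with 1 library left out, the libraries being those named with that result. No alternative reversed the direction of a median or of a called fold change of the 43 genes. Fold changes near 0 that were not called did change sign, such as POLR1A with tazemetostat (0.12, range -0.02 to 0.29) and BOP1 with ipatasertib (range -0.15 to 0.04). Library totals as scaling took the median log2 fold change with tazemetostat from -0.44 to -0.36 and moved the calls over all tested genes from 3775 higher and 3099 lower to 4573 and 2159. For the departure the same change took them from 869 and 875 to 694 and 1369.

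The labels do not say that a letter marks a shared culture or day. Deviations of same-letter libraries from their group means passed a correlation of 0.1 in at most 1 of 3 pairs per comparison. The pairs over it were A for ipatasertib with DMSO (0.138) and B for the combination with ipatasertib (0.101). The lowest was -0.3, for A of the combination with tazemetostat. With the replicate block, the counts were 21, 37 and 41 against DMSO, 27 against tazemetostat and 38 against ipatasertib for the combination, 26 for tazemetostat against ipatasertib, and 7 for the departure; no call was added. Lost were POLR1B and DDX10 with ipatasertib and POLR1A with the combination against DMSO, NPM3 and RRP1B for the combination against tazemetostat, and NOP14, UTP20, LYAR, RRS1 and PPAN for tazemetostat against ipatasertib. Library sizes over all genes, added later, gave 23 against DMSO for ipatasertib, with POLR1B lost and 1 gene added, and 37, 42 and 7 for tazemetostat, the combination and the departure. Depth limits BOP1 and PPAN most, at 10 to 76 and 25 to 152 reads.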
